A study of Mus musculus with 1152 samples.

Results

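Transcription factors that give lymphatic endothelial cells (LECs) their identity, and those that build lymphatic valves, were examined in the nasopharyngeal lymphatic plexus (NPLP) of aged C57BL/6 mice (C57BL/6J in the study's methods). The 9 factors were taken by name from the deposited expression table of 23168 genes. Prox1, Nr2f2, Sox18 and Hhex formed the pan-lymphatic set of 4, and Foxc2, Gata2, Nfatc1, Foxc1 and Foxp2 formed the valve and precollecting set of 5. The cells had been sorted as CD31+ PDPN+ from pooled tissue and placed singly into wells, and their libraries were made by Smart-seq3, which covers the whole length of a transcript. All labelled cells, of which 56.9% were analysed here, belonged to 1 group, aged nasopharyngeal LECs, with no treatment or genotype to compare. No label named an animal, so the cells were read as 1 pooled sample with no replicates. Intervals are exact (Clopper-Pearson) 95% binomial intervals that cover counting error only, and no test between cells was made. Blocks of 96 consecutive cell numbers, 12 in all, served as the only technical split that the labels allow, and no label calls a block a plate.

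Prox1 is the homeobox factor that specifies lymphatic fate and keeps it in the adult. Sox18 and Nr2f2 (COUP-TFII) act upstream of Prox1 when the first LECs leave the embryonic veins, and Hhex is a homeobox factor of early endothelium. Foxc2, Gata2, Nfatc1 and Foxc1 take part in forming and maintaining the valves that keep lymph moving one way, and NFATc1 enters the nucleus after calcineurin removes its phosphates. Foxp2 is a forkhead factor that the study used, with Lyve1, to mark precollecting vessels, the segments between capillaries and collectors. The study marked valve LECs with the tight junction gene Cldn11 and divided them into upstream and downstream faces by Gja4, which encodes connexin 37.

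The identity of the sorted cells was checked first. Flt4, the receptor for the lymphangiogenic factor VEGF-C, and Mmrn1 were detected in all cells, and the 10 lymphatic identity genes had a median share of 95.7% of cells. The lowest shares on that list were 10.4% for Fgfr3 and 47% for Stab2. Of 14 transcription factors of other cell types, 8 were analysed, with a median share of 0.915% and a highest share of 2.29% for Foxj1, a factor of ciliated cells. Elf3 and Grhl2 had reads in 0 cells, and 3 cells, the limit taken for a count of 0, would make a share of 0.457%. Epcam also had reads in 0 cells, and of the haematopoietic genes Ptprc was detected in 0.915% and Fcer1g, the highest, in 9.60%. The blood endothelial list did not stay low as a whole, with Flt1 in 2.44%, Vwf in 10.4%, Cd34 in 35.5%, Plvap in 65.9% and Emcn in 96.2% of cells. The fibroblast gene Dcn was detected in 30.03% of cells, while the other 4 fibroblast genes lay between 0.610% and 2.44%. Reads per cell ran from 7046 to 10727631 with a median of 148203, and detected genes from 2006 to 7679.

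Sequences upstream of annotated starts are shown for the factor detected in most cells, Prox1, whose counts cannot say which of its 2 annotated starts was used, and for Foxc1, the least widely detected of the 5 factors with an entry in the RefSeq promoter table (GRCm38.p6). Each is printed 5′ to 3′ and ends before the RefSeq start, or before the first annotated exon base where that came earlier, which left out 13 bases for Foxc1. Capitals mark matches, on either strand, to GATAA (GATA factors), TAAACA (forkhead), ACAAT (SOX), GGAAA (NFAT) or AGGTCA (COUP-TF).
Prox1, first start, chr1:190170828-190171077, minus strand: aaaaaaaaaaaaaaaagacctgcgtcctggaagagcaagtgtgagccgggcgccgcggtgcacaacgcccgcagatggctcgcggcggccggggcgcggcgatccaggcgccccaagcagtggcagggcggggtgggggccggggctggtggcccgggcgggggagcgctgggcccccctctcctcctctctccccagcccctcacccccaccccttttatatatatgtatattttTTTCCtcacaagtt
Prox1, second start, chr1:190169516-190169765, minus strand: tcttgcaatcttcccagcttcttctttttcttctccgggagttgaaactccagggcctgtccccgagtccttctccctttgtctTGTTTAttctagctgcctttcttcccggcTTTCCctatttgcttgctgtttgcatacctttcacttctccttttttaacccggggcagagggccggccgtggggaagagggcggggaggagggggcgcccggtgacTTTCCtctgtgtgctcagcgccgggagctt
Foxc1, chr13:31806396-31806632, plus strand: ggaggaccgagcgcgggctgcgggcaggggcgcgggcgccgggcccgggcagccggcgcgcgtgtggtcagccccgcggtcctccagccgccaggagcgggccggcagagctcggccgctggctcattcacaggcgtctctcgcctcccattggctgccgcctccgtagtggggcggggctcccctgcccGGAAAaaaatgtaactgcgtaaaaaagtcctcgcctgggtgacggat
The first Prox1 window lay outside every annotated exon, within the span of the antisense gene Prox1os. The second lay within the Prox1 gene between its exons and overlapped an exon of Gm28172 on the other strand. The Foxc1 window overlapped no annotated gene. In windows of 250 bases, the first Prox1 start held 1 NFAT match, the second held 2 NFAT matches and 1 forkhead match, and Foxc1 held 1 NFAT match. None of the 3 held a GATA, SOX or COUP-TF match. Among 32851 RefSeq windows of this length, 55.6% held the NFAT letters, 27.7% the SOX letters, 22.6% the GATA letters, 14% the COUP-TF letters and 12% the forkhead letters. Such matches are descriptions of the letters and not binding sites. The number of CG dinucleotides was 20 and 11 at the Prox1 starts and 29 at Foxc1, against a median of 6 over all windows.

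The first question was how widely each factor was detected among LECs, a cell counting as positive at 1 read or more. Prox1 was detected in 97.1% of cells (95.5 to 98.2%), Nr2f2 in 86.7% (83.9 to 89.2%), Sox18 in 72.6% (69 to 75.9%) and Hhex in 51.1% (47.2 to 55%). Among the valve and precollecting factors, Nfatc1 was detected in 77.9% (74.5 to 81%) and Foxp2 in 61.9% (58.1 to 65.6%). Gata2 was detected in 41.5% (37.7 to 45.3%), Foxc1 in 26.8% (23.5 to 30.4%) and Foxc2 in 15.9% (13.1 to 18.9%). The median share was therefore 79.6% for the 4 pan-lymphatic factors and 41.5% for the 5 others, but the sets overlapped, since Nfatc1 and Foxp2 were each detected in more cells than Hhex. Over all 20981 genes with a read, the median share was 7.62%. Even Foxc2, the least widely detected factor, lay above the 2.29% of the most widely detected factor of another cell type.

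Because a share of cells rises with depth, the shares were also taken after thinning every cell to 20000 reads. This kept 86.6% of cells and dropped 88 shallower ones. At this depth Prox1 was detected in 94% of cells (91.7 to 95.8%), Nr2f2 in 76.6% (72.9 to 80%), Sox18 in 61.6% and Hhex in 38.9%. Nfatc1 was detected in 59.2%, Foxp2 in 43.7%, Gata2 in 28%, Foxc1 in 16% and Foxc2 in 9.33% (7.07 to 12%). The order of the 9 factors was the same as with all reads, except that Sox18 and Nfatc1 changed places. Across the 12 blocks at this depth, Prox1 ran from 81.3% to 100% and had the highest share of the 9 in 11 blocks. Foxc2 ran from 5% to 12.8% and had the lowest share in 10. Block 9, with 20 cells at a median of 2042790 reads, had the lowest thinned shares of Nr2f2 (45%), Sox18 (40%), Hhex (25%), Gata2 (15%) and Foxc2, beside a Prox1 share of 100%.

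**Figure D1:**
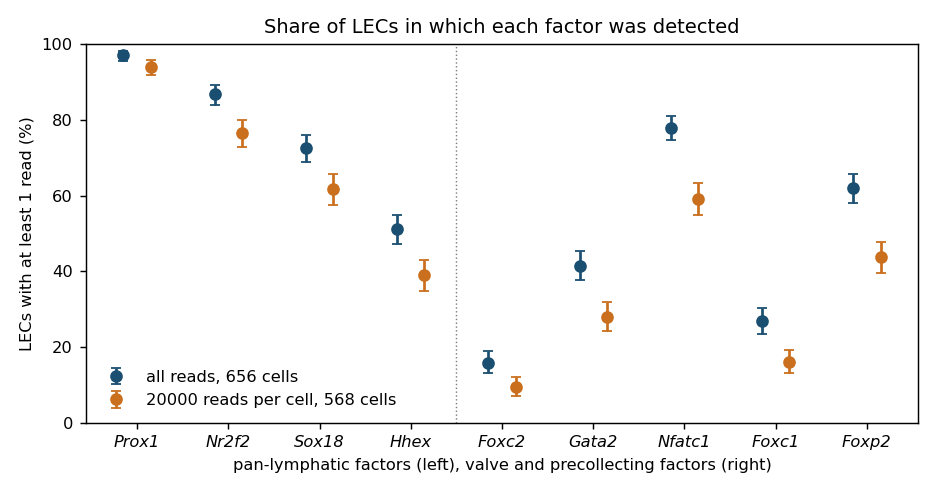
Share of LECs (percent, vertical axis) with at least 1 read of each factor, from all reads (blue) and after thinning to 20000 reads per cell (orange). Bars are exact 95% binomial intervals, and shares run from 97.1% for Prox1 to 15.9% for Foxc2 with all reads.

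The deposited values, natural logs of 1 plus reads per 10000, showed how far levels spread among cells. Prox1 had a mean log value of 1.49 ± 0.70 (SD over all cells analysed), with a lowest value of 0, a median of 1.51 and a highest value of 3.40. Nr2f2 had a mean log value of 0.84 ± 0.62 and a median of 0.78, and Sox18 a mean of 0.80 ± 0.77 and a median of 0.75, up to 3.02 and 2.97. Prox1 thus spread around a level above 0 in most cells, whereas for Gata2, Foxc1 and Foxc2 the median cell was at 0. In the cells that had reads of each gene, the median log value was 1.54 for Prox1, 1.09 for Sox18, 0.93 for Nr2f2, 0.79 for Nfatc1, 0.66 for Foxp2 and 0.65 for Hhex. It was 0.51 for Gata2, 0.39 for Foxc1 and 0.30 for Foxc2. These log values carry no correction for gene length. The 66 cells with the highest level held 92.3% of the summed Foxc2 level, in reads per 10000, and 78.8% of that of Foxc1, against 30.1% for Prox1 and 42.1% for Nfatc1. Foxc2-positive cells had a median of 6 reads of the gene and at least 2, so single Foxc2 calls rest on few reads.

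Levels were compared between genes per length of exon, as mean reads per 10000 reads per kb. On this scale Sox18 was highest at 1.27 and stood above Prox1, at 0.546, in all 12 blocks. Prox1 in turn stood above Nr2f2, at 0.214, in all 12. For Nr2f2 and Nfatc1, at 0.180, the length used decided the call. Per kb of all exons Nr2f2 was higher in 7 of 12 blocks, so the pair did not separate beyond its spread, but per kb of the longest transcript it lay at 0.437 against 0.280 and was higher in 11 of 12. Hhex followed at 0.141, below Nfatc1 in 11 of 12 blocks and above Gata2, at 0.0806, in all 12. The next pair also turned on the length. Foxp2 lay at 0.0547 per kb of all its exons, below Gata2 in 9 of 12 blocks, but at 0.132 per kb of its longest transcript, against 0.122 for Gata2, which was then higher in 5 of 12 blocks. Foxc1 at 0.0367 and Foxc2 at 0.0332 closed the order and did not separate, with Foxc1 higher in 7 of 12 blocks. Sox18 was therefore the factor with the highest level per length although it was detected in fewer cells than Prox1 and Nr2f2. Its place above Prox1 rests on the division by length, 1620 exon bases against 8390. Before it, the mean was 2.06 reads per 10000 for Sox18 and 4.58 for Prox1. Whether reads rise in proportion to length in these libraries was not tested.

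**Figure D2:**
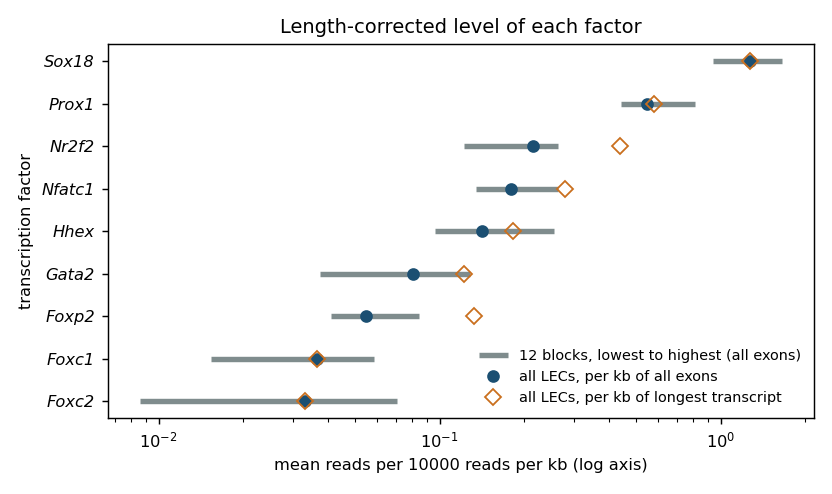
Mean level of each factor in reads per 10000 reads per kb (log axis), divided by all exons (blue points) or by the longest transcript (open orange diamonds), over all LECs analysed. Grey bars run from the lowest to the highest of 12 blocks, and Sox18 lies above Prox1 in every block.

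Neighbouring genes bear on the Nr2f2 and Prox1 values. Nr2f2 shares 0.643 kb of exon with the opposite-strand gene B130024G19Rik, which was detected in 37.2% of cells with reads equal to 24.6% of those of Nr2f2. Prox1 shares 0.133 kb of exon with Prox1os, which was detected in 5.03% of cells with reads equal to 1.06% of those of Prox1. Whether counting used the strand is not stated, so the reads of such overlapping pairs cannot be assigned with certainty.

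Among 17 paralogues of the factors, 14 were analysed, and their median share was 10.5% of cells. The member was the highest expressed of its family, per length, for Prox1, Nr2f2, Sox18 and Gata2, each above every analysed paralogue in all 12 blocks. Prox1 lay at 91.2 times the level per kb of Prox2. Sox18 lay at 4.68 times that of Sox7, its partner in endothelial SOXF function, whereas Sox17, known from arteries, was detected in 1.98% of cells. Nr2f2 lay at 16 times Nr2f1, and Gata2 at 4.08 times Gata6. In the FOXP and NFAT families a paralogue was higher. Foxp1 was detected in 85.7% of cells and lay at 2.27 times Foxp2 per kb of all exons and 1.80 times per kb of the longest transcript, above Foxp2 in all 12 blocks. Nfat5, the family member that answers osmotic stress without calcineurin, was detected in 96.5% of cells at 1.35 times Nfatc1 per kb and was higher in 11 of 12 blocks. Of the calcineurin-regulated paralogues, Nfatc2 was detected in 29% of cells, Nfatc3 in 23.9% and Nfatc4 in 0.457%.

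Other endothelial transcription factors, 24 in all, gave the setting. Their median share was 66.9% of cells, from 3.05% for Zfpm1, a GATA cofactor, to 98.3% for Tcf4. Thus the median over the valve and precollecting factors lay below, and that over the pan-lymphatic factors above, the median over this list. The 13 calcineurin and NFAT regulators had a median share of 41.2%, from 0.305% for Rcan2 to 81.6% for Rcan1, a calcineurin inhibitor that is itself an NFAT target. At 20000 reads, Nfatc1 was detected in 59.9% of cells with Rcan1 and in 58% of cells without it. At 50000 reads the shares were 75.5% and 61.3%, with intervals apart, and at 10000 fragments 50.5% and 50.4%, so the relation depended on the depth.

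Prox1 was not detected in 19 cells. These had a median of 30856 reads, against 157463 in cells with Prox1, although the deepest of them had 2068220. All 19 had reads of Flt4, Mmrn1 and Pdpn, 18 had Lyve1 and 18 had Cdh5, the VE-cadherin gene. Of the other pan-lymphatic factors, Nr2f2 was detected in 14 of them, Sox18 in 12 and Hhex in 6.

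The number of factors per cell was counted at 20000 reads. The median cell had reads of 4 of the 9 factors, 3 of the 4 pan-lymphatic factors and 1.5 of the 5 others. All 4 pan-lymphatic factors were detected together in 19% of cells (15.9 to 22.5%). None of the valve and precollecting factors was detected in 17.1% (14.1 to 20.4%), 1 in 32.9%, 2 in 31.2% and 3 in 14.8%. All 5 were detected together in 2 cells, and all 9 in 1 cell. Detection of several factors went with the number of genes detected, whose median was 2733 in cells with none of the 5 and 3054 in cells with 3 of them.

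Cldn11 was detected in 43.5% of the cells kept at this depth, and 0 of the 9 factors had intervals apart between cells with and without it. The largest differences were for Foxp2, at 49.8% (43.4 to 56.2%) with Cldn11 and 38.9% (33.6 to 44.5%) without, and Hhex, at 44.9% and 34.3%. Foxc2 was detected in 11.3% (7.67 to 16%) of cells with Cldn11 and 7.79% (5.10 to 11.3%) without. Nfatc1 was detected in 59.5% and 58.9%, and Prox1 in 94.7% and 93.5%. The median difference was 2.0 percentage points over the pan-lymphatic factors and 4.91 over the valve and precollecting factors. The order of the sets was not stable, since at 2 or more reads the medians were 2.62 and 0.021 points, and with all reads they were 10.2 and 12.2. Foxp2 was higher with Cldn11 in 11 of 12 blocks, in 8 at 50000 reads and in 10 at 10000 fragments, whereas Foxc2 was higher in 8, 8 and 6.

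Gja4 divided the factors further. Foxc2 was detected in 14.3% of cells with Gja4 (10.2 to 19.3%) and in 5.57% of cells without it (3.34 to 8.66%). Gata2 was detected in 35.1% (29.1 to 41.4%) and 22.6% (18.2 to 27.6%). These were the 2 factors with intervals apart for Gja4, and they were higher with Gja4 in 10 and 9 of 12 blocks. At 50000 reads these counts were 7 and 10, and at 10000 fragments 6 and 8. In cells with both Cldn11 and Gja4, the combination the study used for the downstream face of the valve, Foxc2 was detected in 16.7% of cells (10.6 to 24.3%). It was detected in 5.79% of cells with Cldn11 alone (2.36 to 11.6%), 11.8% of cells with Gja4 alone and 5.45% of cells with neither. These combinations held 22.2%, 21.3%, 21% and 35.6% of the cells kept. Foxc1 ran the other way within Cldn11 cells, at 15.1% with Gja4 and 23.1% without, but its intervals overlapped. Nfatc1 varied little, from 54.8% with both genes to 64.5% with Cldn11 alone. The Foxc2 difference by Gja4 was smaller in the other settings. It was 8.71 percentage points at 20000 reads, 6.15 at 50000 reads and 3.30 at 10000 fragments, and in both alternatives the intervals overlapped. The Gata2 difference by Gja4 was 12.5, 14.4 and 7.73 points, with intervals apart at 50000 reads and overlapping at 10000 fragments. Gja4 was not particular to valve-like cells. At full depth it was detected in 53.8% of the valve-like cluster described below and in 71% of the cluster led by Ahsg and Spp1.

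**Figure D3:**
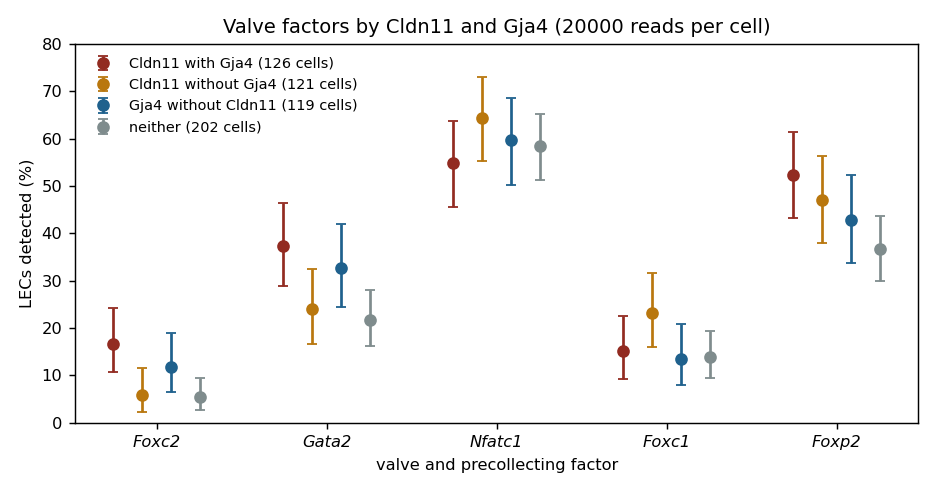
Share of LECs (percent) with each valve or precollecting factor in cells with both Cldn11 and Gja4, either alone, or neither, at 20000 reads per cell. Bars are exact 95% binomial intervals, and Foxc2 runs from 16.7% in cells with both genes to 5.45% in cells with neither.

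Foxp2 and Lyve1 mark precollecting LECs together in the study. They were detected together in 31.3% of cells (27.5 to 35.3%). Lyve1, a hyaluronan receptor most abundant in capillaries, had reads in 95.9% of cells at full depth and in 79.4% at 20000 reads. Most cells counted here as without it thus had Lyve1 reads at full depth. Foxp2 was less often detected where Lyve1 was detected at 20000 reads. Its share was 39.5% of cells with Lyve1 (34.9 to 44.1%) and 59.8% of cells without it (50.4 to 68.8%). The difference was −20.4 percentage points at 20000 reads, −20.3 at 50000 reads and −21.4 at 10000 fragments, with intervals apart at each, and Foxp2 was lower with Lyve1 in 11, 10 and 10 of 12 blocks. Nr2f2 ran opposite to Foxp2. It was detected in 80.3% of cells with Lyve1 (76.3 to 83.8%) and 62.4% without (53 to 71.2%), and in 92.3% of 52 cells with Ptx3 (81.5 to 97.9%) and 75% without. For Nr2f2 the difference by Lyve1 was 12.7 points at 50000 reads, where the intervals overlapped, and 15 at 10000 fragments, where they were apart. Nr2f2 was higher with Lyve1 in 10 of 12 blocks at 20000 reads, 8 at 50000 reads and 7 at 10000 fragments.

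The capillary markers Fndc1 and Ptn divided 3 factors. Sox18 was detected in 71.7% of cells with Fndc1 (65.1 to 77.7%) and 55.6% of cells without (50.3 to 60.9%), a difference of 16.1 points that stayed at 13.9 at 50000 reads and 12.8 at 10000 fragments, with intervals apart at each. Foxp2 was lower with Fndc1, at 34.9% and 48.9%. Gata2 was detected in 38.2% of cells with Ptn and 24.3% of cells without, and its intervals overlapped at 10000 fragments. With Stab2, a scavenger receptor of capillary LECs, no factor had intervals apart, and Foxc2 was detected in 5.08% of cells with it and 11.3% without.

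Valve programme genes, 27 in all, were then compared between cells with and without each valve factor at 20000 reads. Their median share over all cells at full depth was 60.7%, from 0.610% for Nrp1 to 99.5% for Tie1. In the 53 cells with Foxc2, 19 of the 27 genes had a higher share than in cells without it, with a median difference of 4.57 percentage points. Over the 7752 genes detected in at least 10% of these cells, 55.2% had a higher share in Foxc2 cells, with a median difference of 0.725 points, and of the 23 valve programme genes past the same limit 18 did. Efnb2, the ephrin ligand that valve formation needs, was detected in 77.4% of cells with Foxc2 and 48.9% without, Gja4 in 66% and 40.8%, and Nos3, the endothelial nitric oxide synthase, in 60.4% and 43.7%. Gja1, which encodes connexin 43, ran the other way and was detected in 79.2% of cells with Foxc2 and 87.2% without. For Gata2, 22 of 27 genes were higher, with a median difference of 4.87 points, but 71.7% of the 7752 genes were also higher, and the median difference over them was 2.49 points. For Nfatc1 the count was 22 of 27 against 73.6% of the 7752 genes, for Foxc1 21 against 55.9%, and for Foxp2 20 against 66.6%. Past the 10% limit the counts were 19 of 23 for Gata2, Nfatc1 and Foxp2 and 18 of 23 for Foxc1. Thus the counts for Gata2, Nfatc1 and Foxp2 stand beside a shift of genes in general.

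Single genes stood further apart. Gata2 was detected in 37.4% of cells with Nos3 and 20.3% without. The difference was 17.1 points at 20000 reads, 25.7 at 50000 reads and 17 at 10000 fragments, with intervals apart at each, and Gata2 was higher with Nos3 in 10, 12 and 10 of 12 blocks. Nos3 was not particular to Gata2. At 20000 reads its share was 21 points higher in cells with Gata2 than without. It was also higher with Foxc1 (19.4 points), Foxp2 (17.7), Foxc2 (16.7) and Nfatc1 (11.6). Foxp2 was detected in 52.6% of cells with Fn1, the fibronectin of the valve core matrix, and 29.5% without, and its difference was 23, 15.1 and 14.2 points at the 3 depths, with intervals apart at each. It was higher with Fn1 in 12, 8 and 10 of 12 blocks. Foxc2 was detected in 14% of cells with Efnb2 and 4.36% without, but the intervals overlapped at 50000 reads, where the difference was 6.80 points, and at 10000 fragments, where it was 6.23. These genes were picked after their values were seen.

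**Figure D4:**
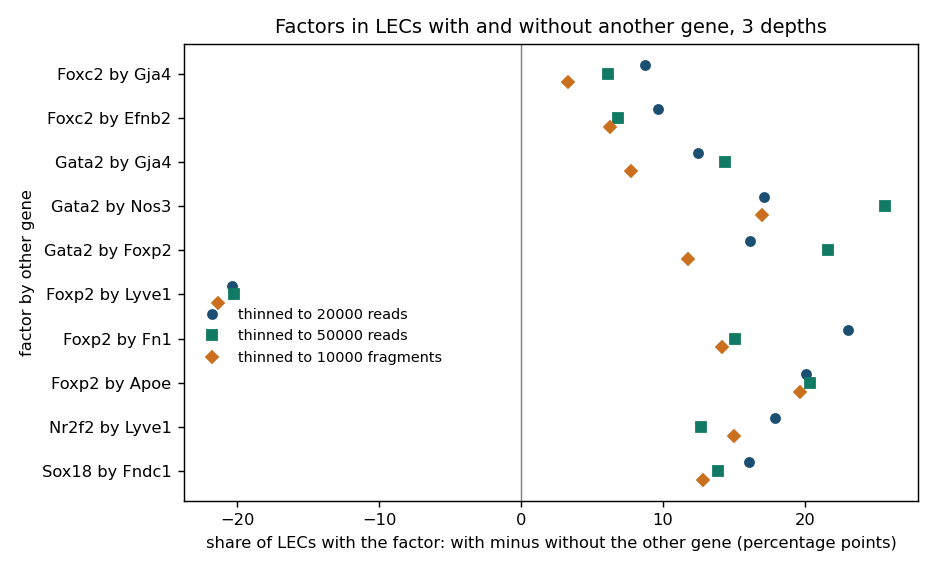
Difference in the share of LECs with a factor between cells with and without another gene, in percentage points, with cells thinned to 20000 reads (circles), 50000 reads (squares) or 10000 fragments (diamonds). Foxp2 by Lyve1 lies at −20.4, −20.3 and −21.4, whereas Foxc2 by Gja4 falls from 8.71 to 3.30.

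Pairs of factors covaried weakly across the cells kept at 20000 reads. Over 36 pairs, Spearman's rho ran from −0.088 to 0.164 with a median of 0.027, and 26 pairs were above 0. All pairs share the same cells, and no p is given. The highest pair was Gata2 and Foxp2, found together in 92 cells where independence would give 69.4. Gata2 was detected in 37.1% of cells with Foxp2 and 20.9% of cells without it, a difference of 16.2 points that was 21.7 at 50000 reads and 11.8 at 10000 fragments, with intervals apart at each and the same direction in 11, 12 and 12 of 12 blocks. Hhex and Foxc2 came next, with a rho of 0.143, but the difference of 8.43 points fell to 3.88 at 50000 reads and 1.46 at 10000 fragments. Nr2f2 and Sox18 had a rho of 0.137, and the intervals of the Nr2f2 share by Sox18 overlapped at every depth. Read the other way at 20000 reads, the intervals were apart. Sox18 was detected in 64.8% of cells with Nr2f2 (60.1 to 69.3%) and 51.1% without (42.3 to 59.9%). The related factors Foxc2 and Foxc1 had a rho of 0.027 and were found together in 10 cells where independence would give 8.49. Prox1 and Sox18 had a rho of −0.088, as did Nr2f2 and Foxc2.

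The genes whose levels ran most like each factor were ranked by rho among 7752 genes detected in at least 10% of the thinned cells. The ranks were taken at a single thinning depth. How high a rho chance alone would give among so many genes was not tested, so the lists only describe the ranks. For Nr2f2 the nearest genes were Flt4 (rho 0.259), Reln, Lyve1, Aqp1 and Slco2b1 (0.216), of which Flt4, Reln and Lyve1 are known LEC genes. For Foxp2 they were Parm1 (0.272), Clca3a1, Apoe, Procr and Fmo1 (0.219). Foxp2 was detected in 52.5% of cells with Apoe, a lipid carrier gene, and 32.4% without, and this difference was 20.1, 20.4 and 19.7 points at the 3 depths with intervals apart at each. For Gata2 they were Bcam (0.277), Nsg1, Lsm3, Slc41a1 and Igfbp5 (0.218), beside a rho of 0.194 between Gata2 and the number of detected genes, the highest of the 9 factors. For Foxc2 they were Efnb2 (0.201), Gja4 (0.195), Tsc22d3, Baiap2 and Abhd2 (0.167). The 2 nearest genes were both on the valve programme list, but their Foxc2 differences had overlapping intervals at the other depths. For Sox18 they were Plec (0.246), Ackr2, Prelp, Ltbp4 and Egfl7 (0.213), and for Hhex Dab2 (0.209), Colec12, Ctsh, Atp1b3 and Adm (0.168). For Prox1 they were Nfat5 (0.211), Dock4, Wnk1, Malat1 and Tra2a (0.195), for Nfatc1 Hnrnph1 (0.190), Elf2, Nfat5, Edem1 and Spaca6 (0.169), and for Foxc1 Stat5a (0.188), Neat1, Mtmr14, Rasgef1b and Sgk1 (0.172). Malat1 and Neat1 are nuclear noncoding RNAs. Nfat5 was listed among the 5 nearest genes of both Prox1 and Nfatc1, and whether this exceeds chance was not tested.

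The factors were last set against clusters of LECs that had been built without them. None of the 9 was among the 2000 variable genes even when all genes were allowed. The 5 clusters were a Ptx3+ capillary-like cluster of 32.2% of cells, an unnamed cluster of 25.8% led by Ahsg, Spp1, Kng2, Apoe and Ephx2, a Ptx3- capillary-like cluster of 15.4% led by Tppp3, Fbln7 and Fndc1, a cluster of 14.8% led by Pthlh, Anxa8, Ptn, Stc1 and Anxa3, and an upstream valve-like cluster of 11.9% led by Fxyd2, Gdf15, Gdf10, Neo1 and Slco4a1. They are called here the Ptx3+, Spp1, Fndc1, Ptn and valve-like clusters. The Spp1 cluster stayed unnamed because no marker list led in it. Its raised markers were Apoe and Bmp4 (precollecting), Gja4 and Clu (downstream valve), and Vwf and Emcn (blood endothelial). The Ptn cluster met the markers of the Ptx3- capillary class through Ptn, Anxa3 and Stc1, which had been listed with earlier results known, and is called by its leading genes. Ptx3 itself was detected in 31.8% of the cells of the Ptx3+ cluster, and Cldn11 in 78.2% of the valve-like cluster against 50.7% to 60.4% of the other 4. Gja4 was detected in 71% of Spp1, 61.9% of Ptn, 57.4% of Fndc1, 53.8% of valve-like and 46.9% of Ptx3+ cells. Median reads per cell ran from 74034 in the Ptn cluster to 186158 in the Spp1 cluster. The summed level of the 5 fibroblast genes was 1.43 and 1.81 reads per 10000 in the Ptx3+ and Ptn clusters. It was 0.133 to 0.605 in the others, and Dcn led it in every cluster. Without Dcn it was 0.234 in the Ptx3+ cluster and at most 0.0475 in the others. The summed level of the 4 haematopoietic genes was 0.0958 to 0.353, led by Fcer1g. The blood endothelial genes summed to 5.63 to 10.6, mostly Emcn, and without Emcn to 0.510 in the Fndc1 cluster, 1.88 in the Spp1 and in the valve-like cluster, 3.10 in the Ptx3+ cluster and 3.22 in the Ptn cluster. The 4 mural and 2 glial genes summed to 0.688 and 0.500 in the Ptx3+ cluster, against at most 0.078 and 0.081 in the others. Epcam was at 0 in every cluster. The part of these transcripts in the cluster values of the factors was not tested.

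Foxp2 varied most between clusters in its share of cells. At 20000 reads it was detected in 57.5% of Spp1 cells (49.3 to 65.5%), 56.7% of valve-like cells (44 to 68.8%) and 56.1% of Ptn cells (44.7 to 67%). It was detected in 31.7% of Ptx3+ cells (24.9 to 39%) and 22.1% of Fndc1 cells (13.9 to 32.3%). Each of the first 3 clusters had an interval apart from those of the Ptx3+ and Fndc1 clusters. Whether the division is one of capillary against other LECs was not tested, since the class of the Ptn cluster is uncertain. It met a capillary class through Ptn, Anxa3 and Stc1, but Fndc1, Reln and Ccl21a of the same list were not raised in it. Its mean log Lyve1 value was 1.61, against 2.40 in the Ptx3+ and 3.36 in the Fndc1 cluster. In the Spp1 and in the valve-like cluster that value was 1.14. Gata2 followed the same division, at 43.9% of Ptn cells (33 to 55.3%), 34.6% of Spp1 cells (27.1 to 42.7%) and 31.3% of valve-like cells, against 18.9% of Ptx3+ cells (13.5 to 25.4%) and 17.4% of Fndc1 cells (10.1 to 27.1%), although the valve-like interval of 20.6 to 43.8% overlapped both. Foxc2 was detected in 16.3% of Spp1 cells (10.9 to 23.2%) and 3.33% of Ptx3+ cells (1.23 to 7.11%). In valve-like cells its share was 10.4% (4.30 to 20.3%), an interval that overlapped those of all other clusters. Foxc1 was detected in 25.4% of valve-like cells (15.5 to 37.5%) and 8.33% of Ptx3+ cells (4.74 to 13.4%). Its shares of 19.5% in Ptn, 19% in Spp1 and 16.3% in Fndc1 cells had intervals that overlapped the valve-like one. Thus all 4 had their lowest or second lowest share in the Ptx3+ cluster. Nfatc1 had overlapping intervals in all 5 clusters, from 52.3% to 65.7%.

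Among the pan-lymphatic factors, Sox18 was detected in 76.7% of Fndc1 cells (66.4 to 85.2%) and 73.2% of Ptn cells (62.2 to 82.4%), against 51.7% of Ptx3+ cells (44.1 to 59.2%) and 50.7% of valve-like cells (38.2 to 63.2%), of which the Ptn and valve-like intervals overlapped. Hhex was detected in 52.4% of Ptn cells (41.1 to 63.6%) and 25.4% of valve-like cells (15.5 to 37.5%). Nr2f2 had overlapping intervals throughout, from 67.2% in valve-like to 83.7% in Fndc1 cells. Prox1 was detected in 89% to 97% of each cluster. On the log scale at full depth, the mean Prox1 level was highest in valve-like cells, at 1.79, and between 1.37 and 1.51 in the other 4 clusters. The valve-like cluster also had the lowest mean log values of Nr2f2 (0.64), Sox18 (0.62) and Hhex (0.24). Prox1 was highest, and Nr2f2 lowest, in the valve-like cluster in both the first and the last 6 blocks. Foxp2 was highest in the Spp1 cluster and lowest in the Fndc1 cluster in both, whereas the highest cluster of Foxc2, Gata2, Foxc1, Sox18 and Nr2f2 differed between them. With 7 clusters or 10 principal components, Prox1 and Gata2 stayed highest in the upstream valve-like cluster and Foxp2, Foxc2 and Hhex in the cluster led by Ahsg and Spp1. With 7 clusters the lowest mean of Prox1, Nr2f2, Sox18, Hhex, Foxc2, Gata2 and Nfatc1 lay in a further unnamed cluster.

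**Figure D5:**
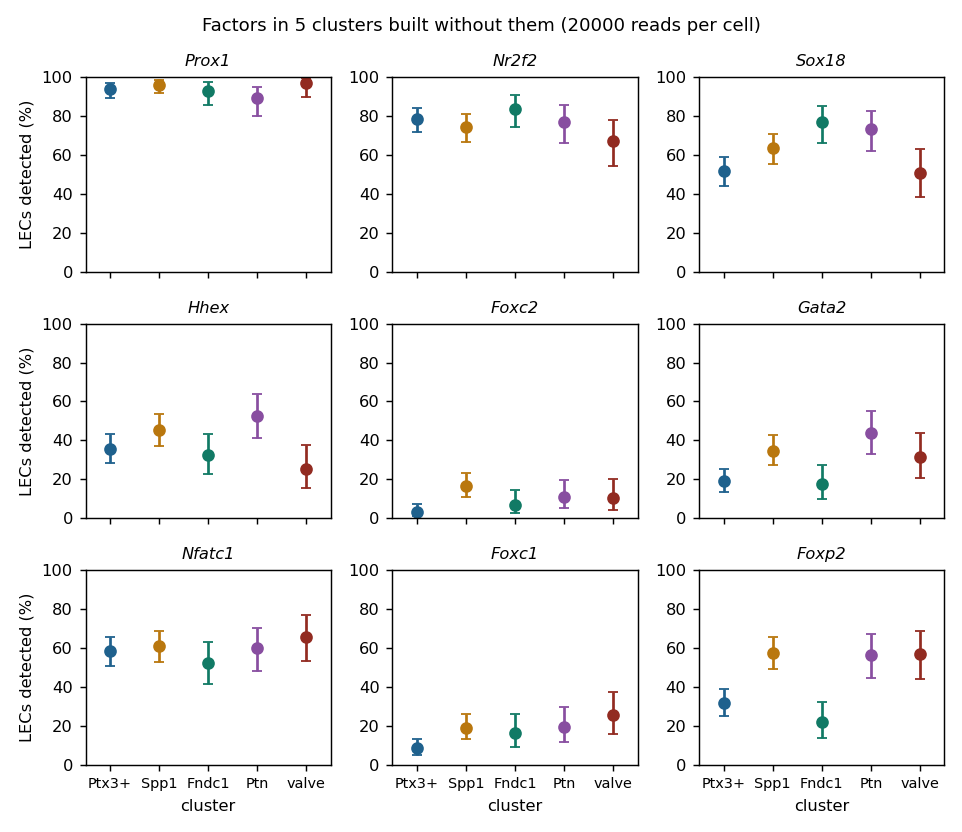
Share of LECs (percent) with each of the 9 factors in 5 clusters built without them, at 20000 reads per cell, with exact 95% binomial intervals. Foxp2 lies between 56.1% and 57.5% in the Spp1, Ptn and valve-like clusters and at 22.1% in the Fndc1 cluster.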

How the data were processed

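The authors aligned Smart-seq3 reads to mm10 with STAR, counted them per gene with featureCounts and normalized them with Seurat 4.1.0, per the labels and the study's methods. The deposited table holds values for 656 of 1152 labelled cells, and 496 cells were not analysed here. The deposited values were read as natural log (1 plus reads per 10000), because their exponentials minus 1 summed to 10000 in every cell, although the methods name log2. Whole reads were recovered in 100% of values within 0.01 reads. Thinning to 20000 reads kept 568 cells, of which 247 had Cldn11, 245 Gja4, 451 Lyve1, 52 Ptx3, 212 Fndc1 and 152 Ptn. The 5 clusters held 211, 169, 101, 97 and 78 cells. Only 20.1% of values above 0 were odd, so thinning to 10000 fragments (reads divided by 2) was added. PCR copies were not collapsed. Clustering followed the study's steps (Seurat 5.3.0, R 4.3.3) at a resolution of 0.7. Intervals used scipy 1.17.1. Exon lengths and overlaps came from GENCODE annotation of GRCm38. Recovery, thinning and clustering were tested on simulated data.

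The 9 factors, gene lists and markers were chosen with earlier results of these data known. Named genes were the members, the extremes of each list, class markers, and the 5 genes nearest each member by rho. Single associations and the 10000-fragment depth were chosen once the values were known. Of listed genes, 3 paralogues and 6 factors of other cell types were not analysed here, and the values of 1 listed gene are not reported here. Promoter entries were found for 5 of the 9 factors, and Foxc2, Nfatc1, Foxp2 and Sox18 had none. Strand use in counting is not given in the sources used here.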

Additional observations from a re-analysis of the deposited data

How the results depend on the processing

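Shares moved with depth and threshold, and the order of the 2 sets by share did not. The median share of the pan-lymphatic factors, 79.6% of cells, was 39.6% at a log value above 1, 69.1% at 20000 reads, 85.4% in cells with at least 3000 genes, 69.1% at 4 or more reads and 58.3% at 10000 fragments. For the valve and precollecting factors, 41.5% became 8.54%, 28%, 47.3%, 30.5% and 22% in the same order. The median mean log levels, 0.82 and 0.24, became 1.08 and 0.36 as logs of linear means. The pan-lymphatic difference by Cldn11, 2.0 points, was 10.2 points with all reads at their full depth, and the cause was not tested. The valve and precollecting difference by Cldn11, 4.91 points, was 12.2 with all reads and 0.021 at 2 or more reads, both within its wide counting limits. The 4-read and fragment settings were chosen after seeing the data. In all, 24 alternative values of the summaries, those 2 values by Cldn11 included, moved less than their intervals or set limits. Of these, only the differences by Cldn11 and the rho values could change sign, and none did. Allowing the factors among the clustering genes could move nothing, since none was among the variable genes. No paired analysis was possible because all cells belonged to 1 group.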
